A study of Homo sapiens with 11 samples.

Results

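The 45 genes described here encode glutamate and GABA receptors, the scaffolds and release proteins around them, and neuronal adhesion and RNA-binding proteins. They were taken from a list of symbols that was chosen with earlier results of these data known. Shares of these genes set beside other genes below are therefore descriptions. All 45 symbols were found among the 59098 RefSeq genes on chromosomes 1 to 22 and X. A CTCF summit, the 1-base centre of a called peak, was counted for a gene when it lay inside the hg38 gene body or within 10 kb of it. Binding was mapped by CUT&RUN, where an antibody directs a nuclease to cut out DNA next to the protein, in HCT116 p53-/- cells, an established line from a human colorectal carcinoma. WT cells are this p53-/- parent line, ORC2 deletion cells are a CRISPR/Cas9 clone of it (ORC2B2), and ORC2 rescue cells were cloned after ORC2 was put back on the pLHCXORC2 plasmid. All groups thus lack p53, and each altered genotype stands on clonal selection. Each genotype had 2 CTCF libraries, and IgG libraries served as background, 2 each for WT and ORC2 deletion and 1 for rescue.

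CTCF is a zinc finger protein that binds a long, partly fixed DNA motif, stops cohesin and so anchors chromatin loops. ORC2 is a subunit of the origin recognition complex, which marks the places where DNA replication can start. At excitatory synapses, glutamate opens AMPA, kainate and NMDA channels and activates metabotropic receptors, while GABA acts at inhibitory synapses. Many genes of this kind are very long and are active mainly in neurons. The files hold binding sites and no expression, so the line's identity was not checked against marker genes.

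The CTCF summits numbered 19044 for WT, 31112 for ORC2 deletion and 20810 for rescue. Each list is 1 list for its genotype and names no replicate, so differences between genotypes have no replicate check and no test was run. Library depth is unknown, and it cannot be told apart from genotype. Intervals below are 95% intervals that cover counting error only, and summits of neighbouring sites are not independent.

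Near the 45 genes lay 71 WT summits (exact Poisson interval 55.5 to 89.6), 126 ORC2 deletion summits (105 to 150) and 70 rescue summits (54.6 to 88.4). Deletion over WT was 1.77 (exact interval 1.32 to 2.41), and rescue over deletion was 0.556 (0.409 to 0.75). Over all protein-coding genes the same ratios were 1.64 and 0.67, values that lie inside these intervals. The median gene of the 45 had 1 WT, 2 deletion and 1 rescue summit, and the median protein-coding gene had 1 in each list. Among protein-coding genes of at least 100 kb the medians were 1, 2 and 1, as at the 45 genes. With only the 19044 highest-scoring summits of each list kept, 71, 74 and 61 summits remained near the 45 genes, and deletion over WT was 1.04 (0.742 to 1.46). Over protein-coding genes that ratio was 0.997. Score minimums moved it the other way, to 2.82 (1.88 to 4.33) for summits with a −log10 q, the peak caller's corrected p on a log scale, of at least 5 and to 4 (2.03 to 8.59) for at least 10. Protein-coding genes moved likewise, to 1.91 and 2.8, and those of at least 100 kb to 2.03 and 3.29, all inside the intervals of the 45 genes.

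At least 1 summit was counted at 31 of the 45 genes for WT, 38 for ORC2 deletion and 29 for rescue. These were 68.9%, 84.4% and 64.4% of the genes, against 50.4%, 63.7% and 52.0% of all 19974 protein-coding genes. The synaptic genes are long, with a median of 306 kb against 24.2 kb, and longer genes hold more summits. Of the 3351 protein-coding genes of at least 100 kb, 71.4%, 84.9% and 74.3% had a summit, whereas of the 32 synaptic genes of that length 71.9%, 84.4% and 65.6% did.

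Per length, the long synaptic genes held fewer summits than protein-coding genes of at least 100 kb, but they are also longer, with a median of 412 kb against 175 kb. The 32 long members had 3.85 WT summits per Mb (2.92 to 4.97), 6.83 in deletion (5.58 to 8.28) and 3.78 in rescue (2.86 to 4.9). Protein-coding genes of at least 100 kb had 5.93, 10.1 and 6.62 per Mb, above the intervals of the long members in all 3 lists. From 300 kb up, a limit chosen after seeing the data, 23 members had 3.78 (2.81 to 4.99), 6.58 (5.27 to 8.12) and 3.55 (2.61 to 4.73) per Mb. The 771 protein-coding genes of that length had 4.18, 7.09 and 4.56, inside those intervals. Other synaptic genes of at least 100 kb had 3.03, 5.13 and 3.64 per Mb, so low density was not particular to the 45 genes. The 13 shorter members had 15.8, 28.0 and 15.8 per Mb, where protein-coding genes under 100 kb had 13.3, 21.2 and 14.4.

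**Figure D1:**
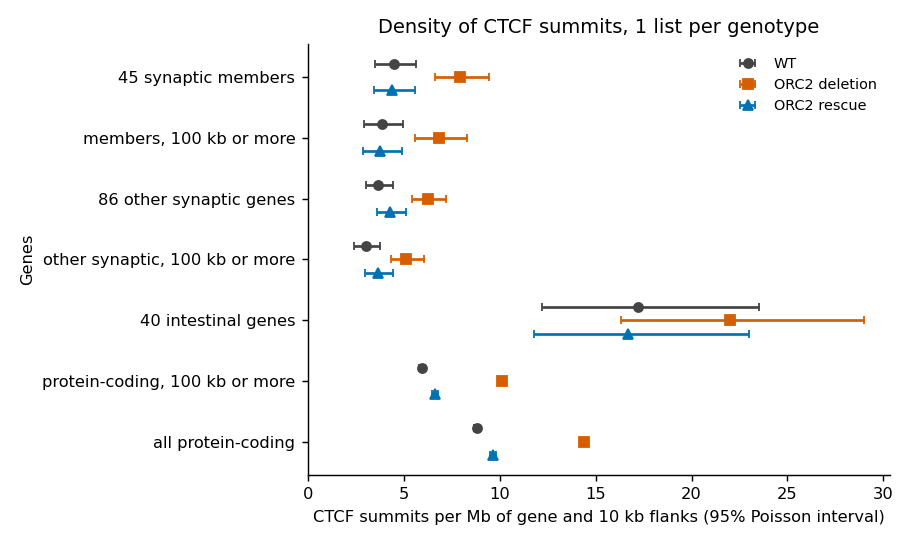
Summits per Mb of gene body and 10 kb flanks (x axis) for groups of genes (y axis), with 1 point per CTCF list and exact 95% Poisson intervals as bars. The 45 synaptic genes sit at 4.47, 7.92 and 4.4 per Mb in WT, ORC2 deletion and rescue, below all protein-coding genes at 8.79, 14.4 and 9.63.

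More deletion than WT summits were counted at 27 of the 45 genes (60%), against 37.6% of all protein-coding genes and 61.4% of those of at least 100 kb. Of the 32 long members 20 did so (62.5%), which is near that background. Fewer deletion than WT summits were counted at GRIA2, GRIK1 and GRIN1 (6.67% of the genes, against 4.27% of protein-coding genes and 5.43% of the long ones). The numbers were equal and above 0 at 9 genes (20%). That pattern was not counted over protein-coding genes, so whether the share is ordinary is not known. Fewer rescue than deletion summits were counted at 30 genes (66.7%, against 35.0% of protein-coding genes and 56.3% of the long ones). Of the 32 long members 22 did so (68.8%). Only GRIA1 and GRIA4 had more in rescue (4.44%, against 4.60% and 5.76%). With equal list lengths, 14 genes had more deletion than WT summits (31.1%, against 13.7% of protein-coding genes and 24.3% of the long ones), and 9 had fewer (20%, against 14.9% and 22.8%). Among the 32 long members 12 then had more (37.5%) and 7 fewer (21.9%). The differences from the long genes were not tested.

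**Figure D2:**
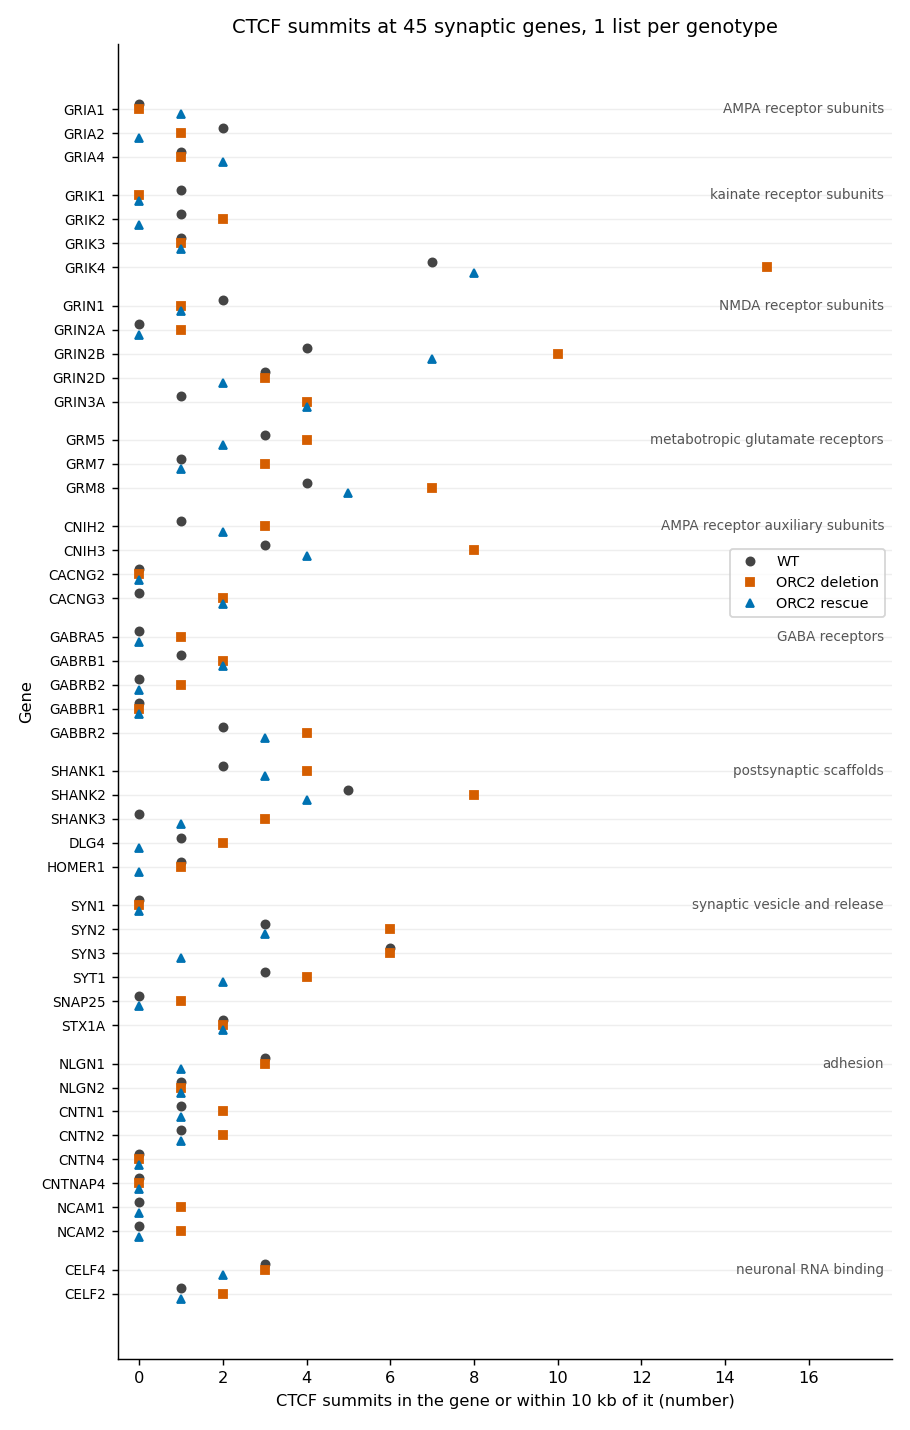
CTCF summits inside each gene or within 10 kb of it (x axis, number) for the 45 genes grouped by role (y axis), with 1 symbol per CTCF list. GRIK4 stands out with 7, 15 and 8 summits for WT, ORC2 deletion and rescue, and 5 genes have 0 in every list.

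Joined across the lists within 500 bp, the summits near the 45 genes formed 143 sites. A site in all 3 lists was found 40 times, at 22 genes (28.0%, Wilson interval 21.3 to 35.8), against 40.6% of all 34769 sites. Deletion alone held 43 sites at 26 genes (30.1%, 23.2 to 38.0, against 27.3%), and deletion and rescue without WT held 25 (17.5%, 12.1 to 24.5, against 13.0%). WT and deletion without rescue held 17 sites (11.9%, against 8.43%), WT alone 13 (9.09%, against 4.49%) and rescue alone 5 (3.5%, against 5.0%). WT and rescue without deletion held 0 of the 143 sites, which allows a share of up to 2.1% as 3 counts of the total (2.62% by Wilson, as plotted), where all sites had 1.18%. The share in all 3 lists lay below that of all sites, and the share of WT alone above it, by more than counting error. Neither share was set beside sites at long genes, and neighbouring sites are not independent. Of the 13 sites in WT alone, all but 1 at CELF4 (−log10 q 17.6) had values from 1.32 to 4.62. The median of the WT list was 6.18.

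**Figure D3:**
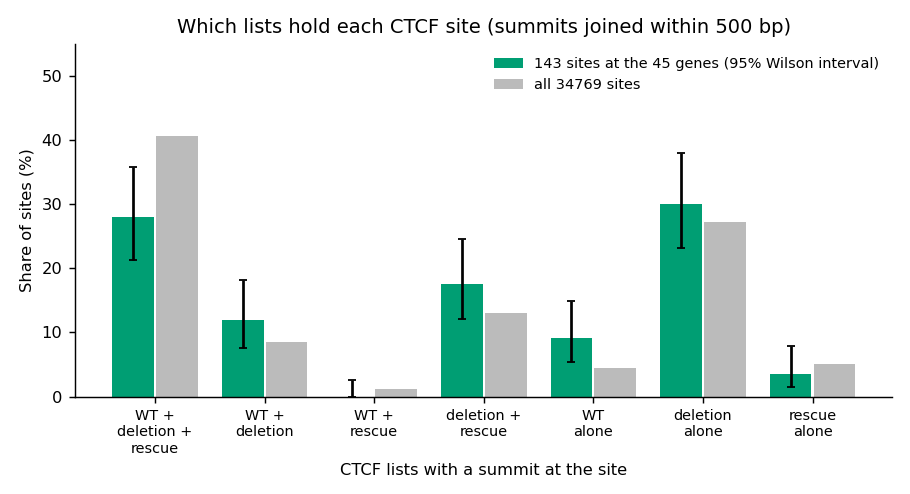
Share of sites (y axis, %) by the CTCF lists that hold them (x axis), for the 143 sites at the 45 genes (green, with 95% Wilson intervals) and all 34769 sites (grey). The class of all 3 lists holds 28.0% of the synaptic gene sites and 40.6% of all sites, and the class of WT with rescue is empty at the synaptic genes.

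Within 100 bp, 37 of the 71 WT summits had a deletion summit (52.1%, Wilson interval 40.7 to 63.3), against 60.6% of all WT summits, and 23 a rescue summit (32.4%, 22.7 to 43.9), against 51.1%. Of the 71, 58 had a deletion summit within 500 bp (81.7%, 71.2 to 89.0), against 89.5% of all WT summits. A rescue summit lay within 500 bp of 40 of them (56.3%, 44.8 to 67.3), against 76.2%. With equal list lengths that last share was 52.1%, against 73.5%. The WT summits at these genes were mostly lower-ranked: 24 of 71 (33.8%, 23.9 to 45.4) ranked above the median of the WT list by −log10 q. Among those 24, 21 had a rescue summit (87.5%, 69.0 to 95.7), and 91.6% of all WT summits of that rank did. Among the other 47, 19 had one (40.4%, 27.6 to 54.7), against 60.9% of all WT summits below the median. The part of summit strength in the difference was not tested beyond this split. Of the 69 deletion summits with no WT summit within 500 bp, 26 had a rescue summit (37.7%, 27.2 to 49.5, against 32.3% of all such deletion summits).

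**Figure D4:**
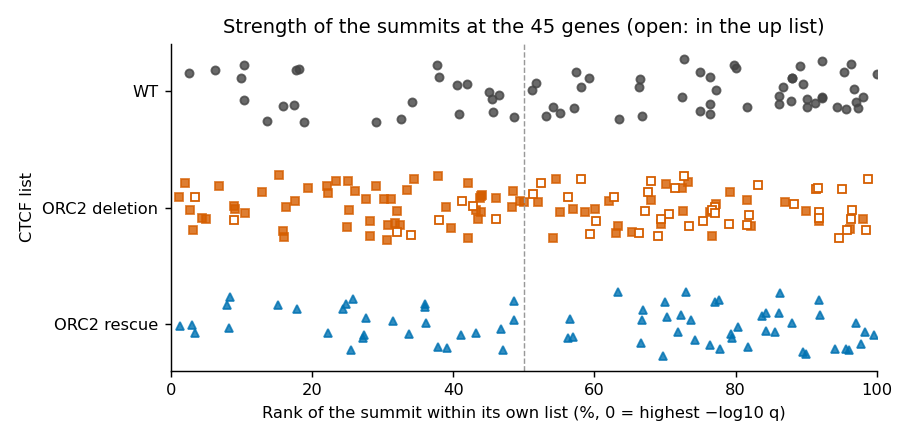
Rank of each summit at the 45 genes within its own list (x axis, %, with 0 the highest −log10 q and a dashed line at the list's median) for the 3 CTCF lists (y axis). Open symbols are deletion summits in the authors' up list, and 8 of those 45 lie above the list's median, against 52 of the 81 filled ones, a direction that the whole list shares (median −log10 q of 4.34 for up summits and 10.8 for others).

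The authors' deposited table of up regions gives starts and ends, with no value, and does not say which groups were compared or how. No WT or rescue summit near the 45 genes lay in it. It held 45 of the 126 deletion summits (35.7%, Wilson interval 27.9 to 44.4), against 30.9% of all deletion summits. The interval includes that share. The share fell to 18.9% (11.6 to 29.3) with equal list lengths, to 25.8% (18 to 35.5) at a −log10 q of at least 5 and to 11.4% (4.95 to 24) at 10, against 11.4%, 16.6% and 4.35% of all deletion summits. Those shares of all deletion summits lie just below the intervals. For deletion summits at protein-coding genes of at least 100 kb the shares were 12.6%, 18.1% and 5.21%, inside the intervals. Being up went with being in deletion alone: 43 of 43 such sites near the 45 genes and 9467 of 9502 in all (99.6%) held an up region, against 0 of 25 and 63 of 4511 (1.4%) of the sites of deletion and rescue. These 45 belonged to 26 genes (57.8%, against 30.7% of protein-coding genes and 53.8% of the long ones, of which 19 of 32 members or 59.4% had one). At least 2 up regions lay at 11 genes (24.4%, against 7.97% and, among long genes, 23.6%). The down list held 0 of the 71 WT summits, which allows a share of up to 4.23% as 3 counts of the total, against 1.92% of all WT summits. None of the 45 genes had a down region, against 1.72% of protein-coding genes and 3.73% of the long ones. Up summits had −log10 q values from 1.98 to 31.9 with a median of 5.16, and the other 81 deletion summits had a median of 9.46, where the whole list had 4.34 and 10.8. The values of −log10 q below describe each summit within its own list and are not scaled between lists. Counts of summits given as 3 numbers are for WT, deletion and rescue, in that order.

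AMPA receptor genes, whose products carry most fast excitatory transmission, had few summits and no up region. These 3 genes held 3 WT, 2 deletion and 3 rescue summits. The up share of 0 has a Wilson interval up to 65.8%, which includes the 30.9% of all deletion summits. Per Mb they had 3.32, 2.22 and 3.32. Protein-coding genes of at least 100 kb had 5.93, 10.1 and 6.62, above the AMPA interval in deletion (0.268 to 8.01) and inside it in WT and rescue. GRIA2, the subunit that makes the channel impermeable to calcium, had 2 weak WT summits upstream of the gene, at 157217597 and 157218056 on chromosome 4 (−log10 q 2.0 and 1.31). A single deletion summit stood between them at 157217815 (7.41), and rescue had none. GRIA4 had 1 summit in each list within 709 bp of its first start on chromosome 11, at 105609379 for WT, 105609542 for deletion and 105609285 for rescue, and a further rescue summit at 105863103. GRIA1 had 1 rescue summit, at 153741664 on chromosome 5, and none in WT or deletion.

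Kainate receptor genes held both the richest and some of the poorest members. GRIK4 (chromosome 11, 120511748 to 120988906) had 7 WT, 15 deletion and 8 rescue summits. Its strongest site lay at 120660229 for WT, 120660122 for deletion and 120660125 for rescue, with −log10 q of 11.2, 38.3 and 37.4 and ranks of 3475, 643 and 277 in the 3 lists. It is the highest-ranked summit of any of the 45 genes in the rescue list. Sites were also held by all 3 lists near the first start, at 120685134, at 120802233, at 120929714 and at 120953121 (WT positions). Of the 15 deletion summits 7 were in the up list, with −log10 q from 2.44 to 7.85, at 120546745, 120622434, 120674754, 120710478, 120744696, 120822670 and 120931216. Deletion and rescue shared 2 further sites that WT lacked, at 120632695 and 120945161 in deletion. GRIK4 alone thus gave 7 of the 45 up summits.

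GRIK3 had 1 site, held by all 3 lists, at 36864309 for WT, 36864212 for deletion and 36864226 for rescue on chromosome 1. GRIK1 was the only gene with a WT summit and none in deletion (2.22% of the genes, against 1.98% of protein-coding genes and 1.79% of the long ones). That summit, at 29651711 on chromosome 21 (−log10 q 1.32), ranked 18686 of 19044 in its list and was absent from rescue too.

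GRIK2 had the only summit inside a promoter window, the 250 bases before to 50 after a listed start, of the 36 members with a RefSeq promoter sequence (GRCh38.p14). Of protein-coding genes in that table, 4.85% had a WT summit in such a window, 7.17% a deletion summit and 3.72% a rescue summit. The deletion summit lay 128 bp before the start, at 101393580 on chromosome 6 (−log10 q 13.6), and the WT summit at 101393440 (3.52) lay 140 bp from it, just outside the window. Rescue had none there. A second deletion summit, at 101395623 (1.98), was in the up list. The 30 bases around the deletion summit (chr6:101393565-101393594, plus strand, 5′ to 3′) are shown because this is the member where binding and promoter coincide, with the summit base in capitals.
GRIK2 deletion summit: gccaggagcgtgcagGggccacggggaaag
The 300-base window had a GC content of 69.3% and held on neither strand the fixed letters of the CTCF core, CCA, AG and GGC with 2 free bases between each, nor the shorter AGNNGGCGC. Only exact letters were searched, and near matches to the core, which the bases shown include, were not counted.

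NMDA receptor genes, which encode the coincidence detectors of synaptic plasticity, had 10 WT, 19 deletion and 14 rescue summits, and 3 of the 19 were up. GRIN2B (chromosome 12, 13537337 to 13982134), a subunit of early postnatal receptors, had 4, 10 and 7. Its highest-ranked site lay 2511 bp beyond the gene at 13534826 in WT (−log10 q 12.8), with 13534934 in deletion (27.5) and 13534810 in rescue (17.6). A second site in all lists stood at 13864148 for WT (7.56), 13864083 for deletion (22) and 13864175 for rescue (10.2), and another at 13941991 in WT. Deletion and rescue shared 4 sites that WT lacked, at 13571445, 13661607, 13667114 and 13739625 in deletion, with −log10 q from 11.7 to 21.9 there and from 2.44 to 7.94 in rescue. Its 2 up summits, at 13559621 (5.41) and 13798368 (7.67), were among its weaker deletion summits. GRIN2B thus had more sites shared by deletion and rescue than sites of deletion alone.

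GRIN3A, a subunit that lowers calcium flow through the receptor, had 1 summit in WT and 4 in both deletion and rescue. Deletion and rescue shared 3 sites without WT, at 101567263, 101602211 and 101711359 in deletion on chromosome 9, and none of its summits was up. The fourth site was in all lists, at 101728476 in WT and 101728182 in deletion. GRIN2D had 3, 3 and 2 summits. Its site 637 bp beyond the gene on chromosome 19 was in all lists, at 48445568 for WT, 48445649 for deletion and 48445545 for rescue (11.1, 13.5 and 12.4). Its other site in all lists, at 48391746 in WT, lay inside the neighbouring gene KDELR1.

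GRIN1, the subunit every NMDA receptor needs, had 2 summits in WT and 1 in both other lists, at different places. The WT summits lay outside the gene on chromosome 9, at 137136148 (2.28) and at 137176695 inside ANAPC2 (3.32). The others lay inside the gene, at 137163434 in deletion (12.9) and 137163090 in rescue (5.93). With the gene body alone, GRIN1 therefore had more deletion than WT summits. GRIN2A had 1 summit, in deletion, 341 bp from its listed start at 10181726 on chromosome 16 (5.27), and it was in the up list.

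Metabotropic glutamate receptor genes, for G protein-coupled receptors, are among the longest members. GRM8, a presynaptic receptor gene of 814 kb on chromosome 7, had 4 WT, 7 deletion and 5 rescue summits. Its strongest site lay at 127107886 for WT (11.5), 127107820 for deletion (32.8, rank 971) and 127107767 for rescue (17.7). All lists also held the site 1244 bp upstream of the gene, at 127254185 in WT, and sites at 126803027 and 126900336. Up summits stood at 126790932 (11.2) and 127158696 (4.3), and deletion and rescue shared a site at 126856717 that WT lacked.

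GRM5, a receptor coupled to calcium release, had 3, 4 and 2 summits. Its sites at 88544570 (4.64) and 88552581 (6.33) in WT on chromosome 11 were in all lists, the site at 88887122 lacked a rescue summit, and the deletion summit at 88536253 (6.66) was up. GRM7 had 1, 3 and 1 summits over 880 kb, none of them in all lists. Its up summits lay at 6994530 (9.33) and 7407108 (5.67) on chromosome 3. Its other deletion summit, at 7144884 (13.5), had a rescue partner at 7144748, and the WT summit at 7505276 (1.81) had none.

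Auxiliary subunits of AMPA receptors, which set channel trafficking and gating, had 4 WT, 13 deletion and 8 rescue summits. CNIH3 (chromosome 1, 224434640 to 224740554) had 3, 8 and 4. Its deletion summit at 224457793 had a −log10 q of 31.9 and rank 1049, the highest of the 45 up summits. The other up summits of CNIH3 were weaker, at 224503490 (5.61), 224633355 (3.98) and 224701357 (3.35). A site in all lists stood at 224644650 for WT (4.9), 224644632 for deletion (20.7) and 224644855 for rescue (10.3). Deletion and rescue shared sites at 224513784 and 224543199 that WT lacked.

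CNIH2 had 1, 3 and 2 summits, with a site in all lists inside the gene at 66282765 for WT (7.57), 66282751 for deletion (19.0) and 66282854 for rescue (13.5) on chromosome 11. Its up summit lay 5039 bp outside, at 66289245 (4.54). CACNG3 had no WT summit and 2 sites shared by deletion and rescue, at 24253219 and 24309763 in deletion on chromosome 16. CACNG2, which encodes stargazin, had none in any list.

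GABA receptor genes had 3 WT, 8 deletion and 5 rescue summits. GABBR2, which forms the GABA-B receptor together with GABBR1, had 2, 4 and 3. Its site at 98315676 for WT (14.7, rank 1889), 98315566 for deletion (29.1) and 98315638 for rescue (17.9) on chromosome 9 was among the strongest of the 45 genes, and the site at 98678559 was in all lists too. Up summits of GABBR2 lay at 98365297 (7.07) and 98643139 (2.93). Its partner gene GABBR1 had no summit in any list, but it spans 30.9 kb against 421 kb for GABBR2. Of all protein-coding genes, 32.9% had none either.

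GABRB1, a subunit of the GABA-A chloride channel, had 1, 2 and 2 summits. Its site at 47122997 for WT (14.4, rank 1984), 47122973 for deletion (14.5) and 47123064 for rescue (4.42) on chromosome 4 was in all lists, and the site at 47384169 in deletion was also in rescue. GABRA5 had 1 summit, at 26889537 on chromosome 15 (5.56), and GABRB2 had 1, at 161544323 on chromosome 5 (9.65). Both were in deletion alone and in the up list.

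Postsynaptic scaffold genes, which tie receptors to the cytoskeleton, had 9 WT, 18 deletion and 8 rescue summits, and 7 of the 18 were up. The highest-ranked summits of the 45 genes in WT and deletion lay 4.9 kb outside SHANK1, inside the neighbouring gene CLEC11A on chromosome 19. They stood at 50724705 for WT (25.0, rank 499), 50724795 for deletion (47.0, rank 376) and 50724682 for rescue (25.0, rank 727), and this site could as well be counted for CLEC11A. Inside SHANK1, all lists held a site at 50705535 in WT (12), deletion and rescue shared one at 50669405, and the deletion summit at 50676931 (3.85) was up.

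SHANK2 (chromosome 11, 70467854 to 71253234) had 5, 8 and 4 summits. Its sites at 70467557, 297 bp outside the gene, and at 70755737 were in all lists (5.65 and 8.08 in WT). Its up summits lay at 70482354 (4.59) and 71078546 (2.35). SHANK3 had no WT summit, 3 in deletion and 1 in rescue, and 2 of the deletion summits, at 50725063 (2.32) and 50732397 (5.77) on chromosome 22, were up. The other, at 50691810, had a rescue partner at 50691800.

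DLG4, the main scaffold of excitatory synapses, had 1, 2 and 0 summits, all outside the gene on chromosome 17. The deletion summit at 7177738 (6.83) lay inside ASGR1, and that at 7221131 (4.54) inside ACADVL, and both were in the up list. The WT summit at 7220882 (5.49) lay 249 bp from the latter, so this up region stands beside a WT summit. HOMER1 had a site in WT, at 79465090 on chromosome 5 (5.84), and in deletion, at 79464873 (12.5), and none in rescue.

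**Figure D5:**
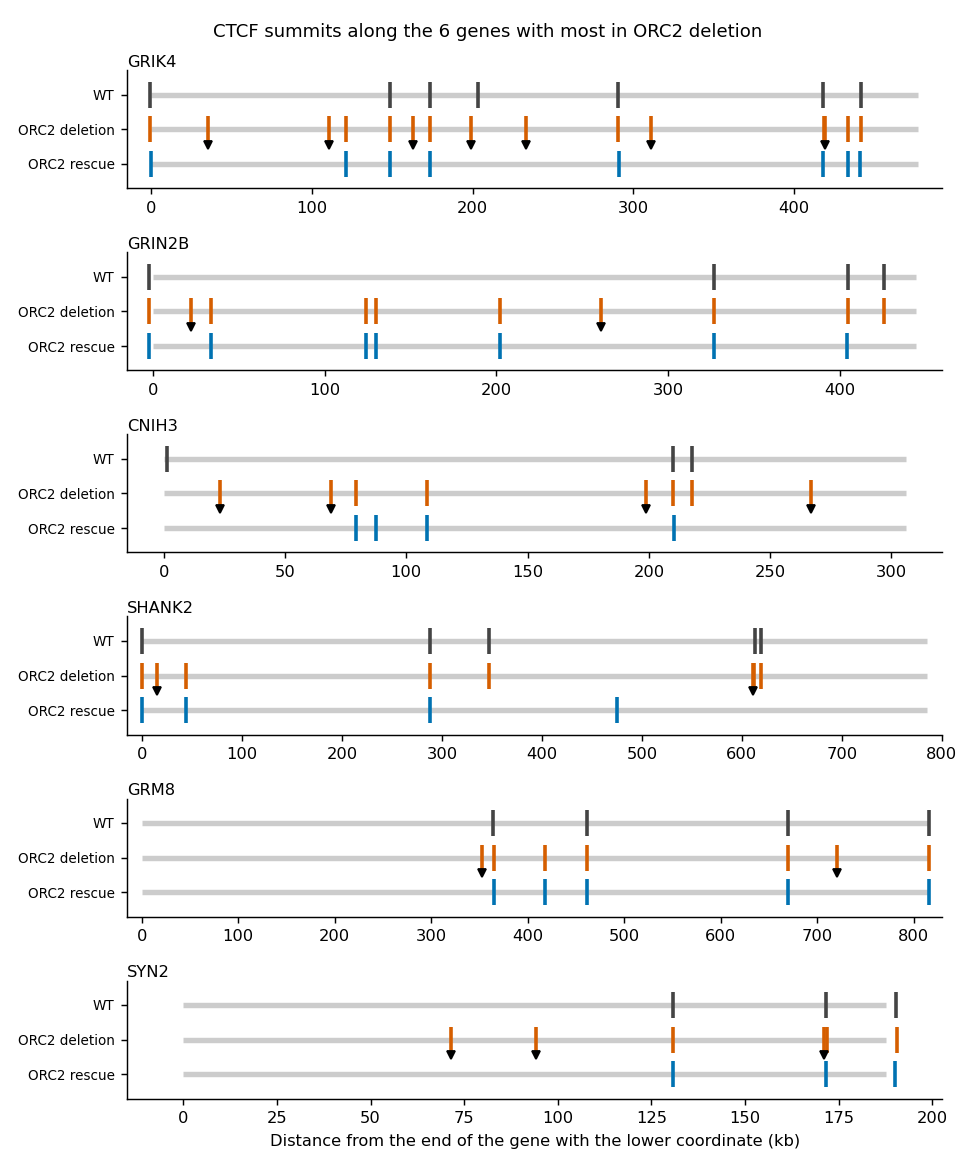
Positions of CTCF summits (ticks) along GRIK4, GRIN2B, CNIH3, SHANK2, GRM8 and SYN2, as distance in kb from the end of the gene with the lower coordinate (x axis), with a row for each CTCF list. Grey bars are the gene bodies, and arrowheads mark deletion summits in the authors' up list, 7 of 15 in GRIK4 and 2 of 10 in GRIN2B.

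Vesicle and release genes had 14 WT, 19 deletion and 8 rescue summits. SYN2, a synapsin that tethers synaptic vesicles, had 3, 6 and 3. Its site at 12135095 for WT (14.5, rank 1953), 12135117 for deletion (34.1, rank 863) and 12135031 for rescue (26.3, rank 636) on chromosome 3 was high in every list. Sites at 12176098 and, beyond the gene, 12194809 in WT were in all lists as well. Its up summits were weaker, at 12075815 (4.01), 12098596 (5.44) and 12175512 (5.01).

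SYN3, another synapsin gene, differed from SYN2, with 6 WT, 6 deletion and 1 rescue summits. All 6 WT summits were modest, with −log10 q from 2.81 to 6.04. Only the site at 32529047 in WT on chromosome 22 was in all lists. Sites at 32660103, 32836518 and 33018459 were in WT and deletion, those at 32797227 and 32926739 in WT alone, and the deletion summits at 32519045 (2.02) and 33049274 (4.72) were up. The site at 32836518 lies in both SYN3 and TIMP3, so it cannot be given to 1 gene.

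SYT1, the calcium sensor of vesicle fusion, had 3, 4 and 2 summits. The site at 79374122 in WT (6.56) on chromosome 12 was in all lists, those at 79408112 and 79420562 lacked a rescue summit, and deletion and rescue shared one at 79345154. STX1A, a membrane SNARE, had 2 summits in each list. Its site 6346 bp outside the gene, at 73726015 for WT (11.4, rank 3381), 73726047 for deletion (24.7, rank 2104) and 73726056 for rescue (8.12) on chromosome 7, was in all lists. SNAP25, its SNARE partner, had 1 up summit in deletion, at 10226138 on chromosome 20 (4.91), and none elsewhere. SYN1 had none in any list.

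Adhesion genes held few summits per length, 1.67 per Mb for WT, 2.78 for deletion and 1.11 for rescue over 8 genes, which was the lowest of the 10 roles in WT and rescue. In deletion the AMPA receptor genes were lower, at 2.22. The adhesion values rest on 6, 10 and 4 summits. Their intervals (0.613 to 3.63, 1.33 to 5.12 and 0.303 to 2.85) overlap those of GABA receptor genes (0.466 to 6.61, 2.6 to 11.9 and 1.22 to 8.79). The 22 other neuronal adhesion genes had 1.65, 3.13 and 2.55 per Mb. CNTN4, a contactin gene of 959 kb and the longest of the 45, had no summit in any list, and neither did CNTNAP4. NLGN1, a postsynaptic neuroligin of 898 kb, had 3, 3 and 1. Its site at 173993713 in WT on chromosome 3 (3.02) was in deletion too, that at 173529071 in deletion was also in rescue, and the deletion summit at 173584145 (11.7) was up. The WT summits at 173733292 (2.56) and 173876644 (1.62) had no partner.

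CNTN2, a contactin of axons, had 1, 2 and 1 summits. Its up summit at 205066448 on chromosome 1 had a −log10 q of 22 and rank 2790, the next highest of the up summits after that in CNIH3. The other site was in all lists, at 205061813 for WT (3.86), 205061733 for deletion (11.6) and 205061629 for rescue (10.4). CNTN1 had 1, 2 and 1, with a site in all lists at 40921677 for WT (5.47), 40921596 for deletion (17.6) and 40921605 for rescue (10.5) on chromosome 12, and an up summit at 40946646 (6.21). NLGN2 had a site in all lists 9725 bp outside the gene, at 7394928 in WT on chromosome 17. NCAM1 and NCAM2, neural cell adhesion molecules, had 1 weak up summit each in deletion, at 113114558 on chromosome 11 and 21163967 on chromosome 21 (2.92 for both).

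Of the RNA-binding genes, CELF4 (chromosome 18, 37242844 to 37565798), a splicing and translation regulator of neurons, had 3, 3 and 2 summits. Its WT summit at 37322480 had a −log10 q of 17.6 and rank 1185, and no deletion or rescue summit lay within 500 bp. Of the 24 WT summits above the median of their list, it was the 1 without a deletion partner. Sites at 37476356 and 37538070 in WT (8.92 and 6.66) were in all lists, and the deletion summit at 37533839 (10.3) was up. CELF2 had 1, 2 and 1 summits, with an up summit 9107 bp outside the gene at 11345782 on chromosome 10 (8.72). Its deletion summit at 11270578 had a rescue partner at 11270787, and its WT summit at 10892799 (2.28) had none.

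Taken by pattern, 26 of the 45 genes had a summit in every list (57.8%, against 43.6% of protein-coding genes and 64.9% of the long ones). CACNG2, GABBR1, SYN1, CNTN4 and CNTNAP4 had none in any list (11.1%, against 32.9% and 12.4%). GRIN2A, GABRA5, GABRB2, SNAP25, NCAM1 and NCAM2 had summits in deletion alone (13.3%, against 8.75% and 7.31%), 1 summit each. Together with CACNG3 and SHANK3, which had summits in deletion and rescue, 8 genes had deletion summits and none in WT, against 15.2% of protein-coding genes and 15.2% of the long ones. GRIA2, GRIK2, DLG4 and HOMER1 had summits in WT and deletion and none in rescue (8.89%). This pattern was not counted over protein-coding genes, so whether that share is ordinary is not known.

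Most summits lay in gene bodies away from starts. Inside the genes were 53 of 71 WT summits, 105 of 126 deletion summits and 56 of 70 rescue summits. Whether they are exonic or intronic is not given here, since exons were not used. Within 1 kb of a listed start, 4 of the 36 genes had a WT summit (11.1%, against 12.2% of protein-coding genes) and 4 a deletion summit (11.1%, against 18.8%). In rescue GRIA4 and GRIK4 did (5.56%, against 10.8%). GRIA4, GRIK2 and GRIK4 had them in WT and deletion, DLG4 in WT and GRIN2A in deletion. Across the 45 genes, gene length and the number of summits had a Spearman rho of 0.285 in WT, 0.29 in deletion and 0.154 in rescue, where all protein-coding genes had 0.308, 0.389 and 0.326. These are descriptions over genes that share the same libraries.

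The CTCF core was also searched in the promoter windows of the 36 genes, 68 windows in all. The full core was found in 1 window (1.47%), against 2.41% of all 35116 windows of that length, searching both strands. The match is at GRIN3A, and the nearest WT, deletion and rescue summits lay 10285, 10579 and 10678 bp away. The shorter AGNNGGCGC, which overlaps the end of the core, was found in 7 windows of 6 genes (10.3%, against 10.4%). The match nearest to a summit was at GRM8, 1049 bp from a deletion, 1104 bp from a rescue and 1234 bp from a WT summit. Both are shown 5′ to 3′ with the match in capitals and 9 flanking bases on each side, from chr9:101738747-101738776 (minus strand) and chr7:127252938-127252964 (plus strand).
GRIN3A core match: ggaatctcaCCAACAGTGGGCgtttagcgc
GRM8 shorter match: agctggcctAGCAGGCGCcaagtctct
A match is a description of the letters in the window and not a binding site.

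No IgG summit lay within 10 kb of any of the 45 genes, 0 of 17 for WT, 0 of 34 for deletion and 0 of 33 for rescue. That is 0 of 84 in all, which allows a share of up to 3.57% as 3 counts of the total. The windows of the 45 genes cover 15.9 Mb. So few IgG summits cannot show whether CTCF summits at these genes are free of background. The IgG summit nearest to a CTCF summit of these genes was 10261812 bp away.

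Other genes of the same functions, 86 in all, gave like ratios. Their summits numbered 112 for WT, 191 for deletion and 131 for rescue, and deletion over WT was 1.71 (1.34 to 2.17) and rescue over deletion 0.686 (0.545 to 0.861). Of their deletion summits 63 were up (33.0%, 26.7 to 39.9), and 31 of the 86 genes had no summit in any list. The share of genes with a summit was less alike. Of the 44 with at least 100 kb, 50%, 63.6% and 59.1% had one in WT, deletion and rescue, and 14 had none in any list. Of the 32 long members 71.9%, 84.4% and 65.6% had one, and 3 had none in any list. This difference was not tested. GPHN, encoding the gephyrin scaffold of inhibitory synapses, had 11, 27 and 14 summits with 10 up regions. DLGAP1, a scaffold of excitatory synapses, had 16, 12 and 13, and DLG2 had 8, 9 and 5. RBFOX3, a neuronal splicing factor, had 7, 13 and 10, CELF5 3, 5 and 3, and CELF6 1, 2 and 2. Of glutamate receptor genes outside the 45, GRID1 had 2, 6 and 3, and GRM4 3, 4 and 4. Of adhesion genes, NRXN2 had 4, 7 and 5, NRXN3 3, 6 and 3, and NFASC 3, 5 and 3. GABA and glycine receptor genes were sparse, with GLRA3 at 3, 3 and 3, GABRQ at 1, 2 and 2, and GLRA2 at 1, 2 and 0.

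Genes of intestinal epithelial cells, the tissue of origin of HCT116, are shorter and had denser summits. The 40 genes held 39 WT, 50 deletion and 38 rescue summits, 17.2 (12.2 to 23.5), 22 (16.3 to 29) and 16.7 (11.8 to 23) per Mb. Protein-coding genes under 100 kb had 13.3, 21.2 and 14.4 per Mb, inside those intervals. Deletion over WT was 1.28 (0.827 to 2.0), an interval that overlaps that of the 45 synaptic genes. Of their 50 deletion summits 9 were up (18%, 9.77 to 30.8), against 35.7% (27.9 to 44.4) at the synaptic genes, and the intervals overlap. Of all deletion summits 30.9% were up, which lies inside the synaptic interval and just above the intestinal one. At protein-coding genes under 100 kb 29.2% were up, inside both. With equal list lengths the intestinal and synaptic shares were 5.71% (1.58 to 18.6) and 18.9% (11.6 to 29.3), against 11.4% of all deletion summits. The difference itself was not tested. EPHB2, an ephrin receptor of the crypt, had 4, 6 and 5 summits, CDH17, an intestinal cadherin, 3, 4 and 3, and MUC13, a mucin, 4 in each list.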

How the data were processed

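The study had 11 CUT&RUN libraries in 6 groups. FastQC 0.11.5, Bowtie2 2.2.9, SAMtools 1.12 and MACS2 were used with build hg38, per the submitters' processing notes. Peak settings, duplicate handling and the use of IgG in peak calling: not given in the sources used here. In the summit lists that the authors deposited, a line is 1 base of a peak with a −log10 q value. Regions in the deposited up and down lists have a start and an end and no other value. The 2 CTCF libraries of a genotype were taken as pooled in its list, which no label states. Depth is unknown.

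Positions were made 1-based. Gene limits, starts and promoter sequences came from RefSeq tables of GRCh38.p14, whose chromosomes are those of hg38. Summits were matched within 100 bp and 500 bp and joined at 500 bp into sites. Intervals at 95% were exact Poisson for counts, Wilson for shares, and exact conditional for ratios. No significance test was run. All 45 genes are named. Positions follow a rule: genes with an up or down region, sites in all 3 lists within 500 bp, the 10 highest-ranked summits of each list, and genes with WT and no deletion summits. Other positions were added after their values were seen. From each further list the 3 genes with most deletion summits are named, apart from 1 that is not reported here. The 45 genes, the lists and the rules were chosen with earlier results of these data known. Alternatives were other windows, score minimums, list lengths and matching distances. Counting and matching were tested on simulated data. The software was matplotlib 3.10.9, SciPy 1.17.1, pandas 2.3.3, NumPy 2.4.6 and Python 3.11.15.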

Additional observations from a re-analysis of the deposited data

How the results depend on the processing

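Of 69 values for the whole list under other settings, 42 kept to their interval, or for counts to within 1.5 times, and 27 moved. Of 676 further values, counts of single genes and the promoter share, 450 kept to the same limits and 226 moved. Counts at named genes thus also depend on the setting. No paired analysis was possible because the columns carry no replicate number: a genotype is 1 list. Nor could a replicate be left out. The gene body alone and a window of 50 kb moved no value for the whole list. Patterns of single genes did move. Genes with none in any list numbered 5 in the main setting, 9 with the gene body alone and 2 with 50 kb. CACNG2, SYN1 and CNTNAP4 had summits within 50 kb. Fewer deletion than WT summits were counted only at GRIK1 with the gene body alone and only at STX1A with 50 kb. When summits under a −log10 q of 5 were dropped, WT and rescue kept 33 and 33 summits at 20 and 19 genes, deletion over WT was 2.82 (protein-coding genes 1.91), 25.8% of deletion summits were up (all deletion summits 16.6%), and 16.2% of those without a WT summit had a rescue summit. With a minimum of 10, WT kept 11, deletion 44 and rescue 13 summits at 10, 24 and 11 genes, deletion over WT was 4 (2.8), 11.4% were up (4.35%), 45.5% of WT summits had a rescue summit and 10.5% of deletion summits without WT did. With equal list lengths, 74 deletion summits remained, deletion over WT was 1.04 (0.997) and 18.9% were up (11.4%). At protein-coding genes of at least 100 kb, 12.6% of deletion summits were up with equal list lengths, 18.1% at a minimum of 5 and 5.21% at 10. For WT summits found in deletion and in rescue, the main shares within 100 bp were 52.1% and 32.4% (all WT summits 60.6% and 51.1%). They were 26.8% and 18.3% within 50 bp (39.3% and 32.7%) and 81.7% and 56.3% within 500 bp (89.5% and 76.2%). Of deletion summits without a WT summit, 24.7% had a rescue summit within 100 bp and 37.7% within 500 bp (all such deletion summits 26.5% and 32.3%). With equal lengths and 500 bp together, a setting chosen after seeing the data, the shares were 52.1% for WT in rescue (73.5%) and 41.9% for deletion without WT. No share over all summits or genes is given for that 41.9%. The same holds for the numbers of genes and the sharing between lists at score minimums. So whether those are ordinary is not known. Why the values under other settings moved was not tested, beyond the shorter lists that a score minimum leaves. The shorter motif raised the share of promoter windows with a match from 1.47% to 10.3%. Depth is unknown and limits every count.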
